A study of Mus musculus with 6 samples.

Results

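Genes of DNA replication and deoxynucleotide synthesis were followed in mouse mammary tumors treated with vehicle or with 3 drugs together. The set held 44 genes, chosen by symbol for their roles in origin licensing, the replicative helicase, the polymerases, the sliding clamp and its loader, nucleotide synthesis, chromatin assembly and E2F control. Of these, 42 were measured by at least 1 probe set with a single gene symbol, out of 12393 genes measured in all. Gins2 and Chaf1a were not analysed here. The members were chosen with earlier results of these data known, so their shares beside those of all genes are descriptive. A probe set is a group of array probes for one transcript, and where a gene had several, the one brightest on average across the 6 arrays stood for it.

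Each group comprised 3 tumor samples, measured on Affymetrix mouse arrays with 1 array per sample. The drug group received VX680, which inhibits Aurora kinases, miltefosine, an alkylphosphocholine, and WP1066, which inhibits JAK2 and STAT3, and both groups were treated for 21 days. Strain, age, genotype and the origin of the tumors are not stated in the labels used, nor do they state whether replicates were separate animals, so each p-value reflects no more than the spread among these 6 samples. Replicates are numbered within each group in deposit order. Values are the authors' expression levels, taken as log2 from their range, so that a difference of -1 would mean a halved signal. Array medians lay between 6.70 and 6.73. The 11 mammary epithelial markers, among them Krt8, Krt18 and Epcam, all had means of at least 9.01.

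Before S phase, the origin recognition complex, Cdc6 and Cdt1 load the Mcm2-7 ring onto DNA, and geminin (Gmnn) later blocks reloading. Cdc45 and the GINS complex turn the ring into an active helicase with the help of Mcm10, polymerases copy the strands held by the clamp Pcna, and ribonucleotide reductase supplies deoxynucleotides. Most of these genes are transcribed under E2F factors as cells pass from G1 into S phase, so their summed transcripts are widely used as a measure of how many cells of a tissue are cycling. In bulk samples, fewer cycling cells and less RNA per cell cannot be told apart.

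The members were slightly lower on average after drug treatment, with the means of 41 of 42 below vehicle. The background share of genes with a lower drug mean was 52.1%. The median log2 difference of the members, drug minus vehicle, was -0.12, a signal 8.27% lower, and the median over all genes was -0.01. Differences ran from -0.32 for Cdc45 to 0.02 for Rfc3. All 3 drug arrays lay below all 3 vehicle arrays for 17 members, which is 40.5% of them, against a background of 9.37%, and for 0 members did they all lie above, against 7.73%. With limma fitted on all 12393 genes, 0 members had an adjusted p under 0.05, and neither did any other gene (a background of 0%). The members' adjusted p ran from 0.29 for Mcm10 to 0.928 for Orc2. At an unadjusted p under 0.05, limma gave 11 members with lower means, 26.2% of them against a background of 4.91%, and 0 with higher means against 5.37%. That count of 11 fell to 5 when any 1 vehicle array or drug replicate 3 was left out and to 7 when drug replicate 2 was, and it was 15 in the absence of drug replicate 1. In these settings 3.78% to 4.59% of all genes were so placed. The count was 4, against 5.13% of all genes, with a skeletal muscle score as covariate. With 3 arrays a group, the smallest two-sided p of an exact permutation test is 0.1. The members' SE was 0.076 at the median and 0.217 for Tyms, the largest.

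**Figure D1:**
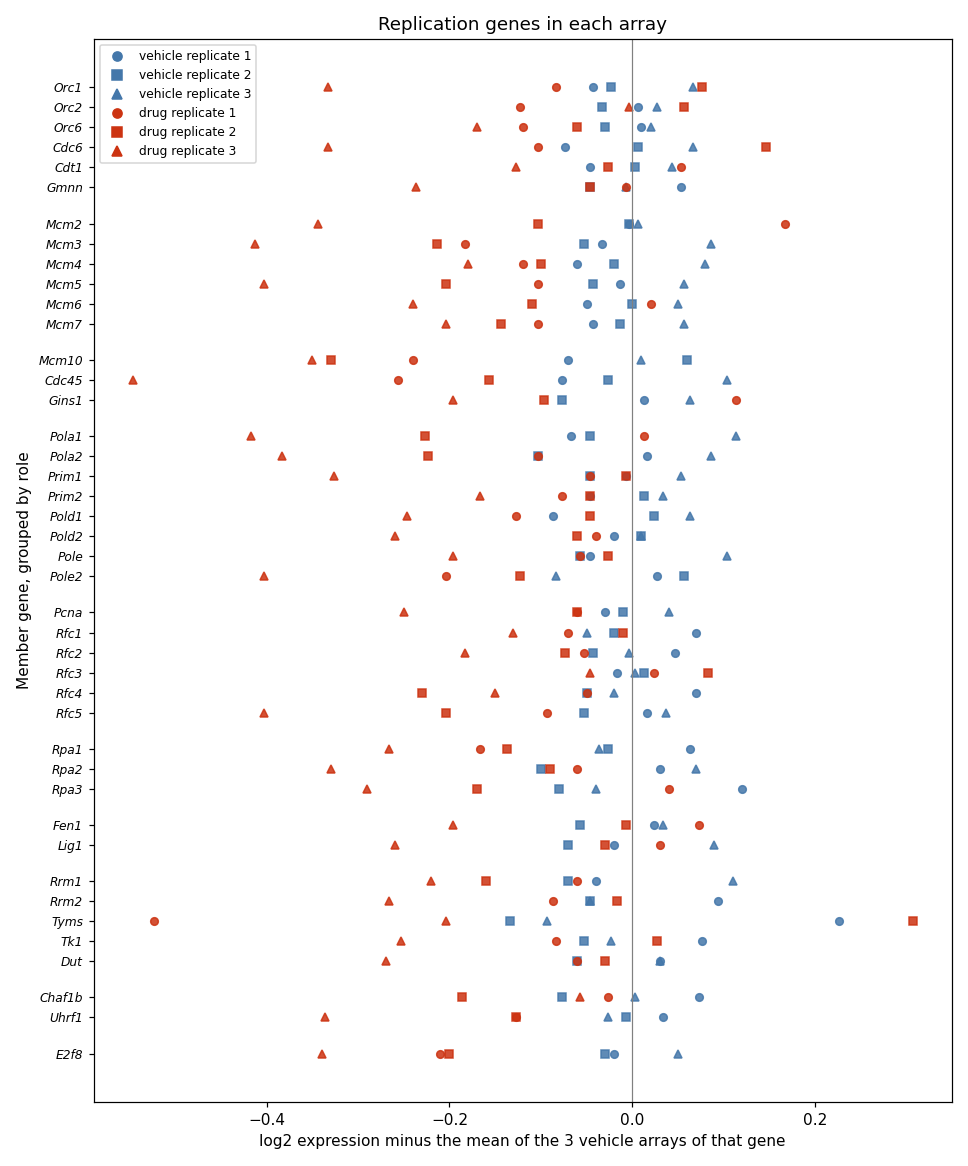
Each row is a member gene, grouped by role, and the horizontal axis is its log2 expression in each array minus the mean of its 3 vehicle arrays. Blue symbols are vehicle and red symbols drug arrays, with a shape for each replicate; drug replicate 3 (red triangles) is the lowest array for 38 of 42 genes.

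The 3 drug arrays did not contribute equally. Drug replicate 3 had the lowest value of all 6 arrays in 38 of 42 members and lay below every vehicle array in 40. Drug replicates 1 and 2 lay below every vehicle array in 25 and 26 members and above every vehicle array in 5 members each. Over all genes, drug replicates 1, 2 and 3 lay below every vehicle array in 30.5%, 25.8% and 31.2% of genes. The median distance of the members from the vehicle mean was -0.07, -0.08 and -0.25 in drug replicates 1, 2 and 3. Vehicle replicate 3 was the highest of all arrays in 21 members. Without drug replicate 3, 35 of 42 members still had lower means and the median was -0.06. The 17 members with all drug arrays below vehicle must stay so when an array is left out. No other member joined them, while the share of all genes was 14.7%, against 9.37% with every array.

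The start regions of many of these genes held an E2F-type sequence. The members were chosen by known role, which includes E2F control, and not by sequence. E2F factors bind sites such as TTCCCGC. The other forms searched were TTGGCGC, the related form TTCGCGC and the fourth combination TTGCCGC. Windows of 300 bases around the start site (250 before, 50 after) were available from RefSeq (build GRCm38.p6) for 36 of the 42 measured members, and Gmnn, Mcm4, Gins1, Prim2, Pole and Rfc2 had no entry. On either strand, with overlapping matches counted once, 23 of 36 members (63.9%) held at least 1 of the 4 motifs in a listed window, against 1698 of 9887 measured genes (17.2%). With a further T in front (TTTCCCGC, TTTGGCGC, TTTCGCGC or TTTGCCGC) the counts were 13 of 36 (36.1%) and 4.1%. CCAAT boxes were in 23 of 36 members (63.9%) and 42.3% of measured genes. The median log2 difference was -0.14 in the 23 members with a 7-letter match and -0.12 in the 13 without one. All drug arrays lay below vehicle in 6 of the 23 and in 8 of the 13, against 9.37% of all genes. These counts were not tested against each other. A match is a stretch of letters in a window and does not show that a factor binds there.

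The windows of Mcm3 and E2f8, a helicase subunit and an E2F factor with lower means, show such matches in capitals, and that of Mcm10, the member with the smallest p, holds none. They are read 5′ to 3′ along the gene, all on the minus strand, from chr1:20820263-20820562, chr7:48881547-48881846 and chr2:5012742-5013041.
Mcm3: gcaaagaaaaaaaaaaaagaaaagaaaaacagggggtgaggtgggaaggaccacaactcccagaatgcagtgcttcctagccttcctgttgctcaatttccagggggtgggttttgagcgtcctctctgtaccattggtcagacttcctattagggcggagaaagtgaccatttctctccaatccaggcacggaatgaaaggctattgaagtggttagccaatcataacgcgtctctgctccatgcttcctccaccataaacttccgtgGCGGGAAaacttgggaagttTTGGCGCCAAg
E2f8: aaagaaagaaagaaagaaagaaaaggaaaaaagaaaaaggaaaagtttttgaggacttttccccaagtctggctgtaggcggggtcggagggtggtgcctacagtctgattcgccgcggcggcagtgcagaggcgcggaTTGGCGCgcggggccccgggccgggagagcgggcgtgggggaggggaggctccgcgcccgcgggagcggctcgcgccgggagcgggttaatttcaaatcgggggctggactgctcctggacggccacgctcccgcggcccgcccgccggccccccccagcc
Mcm10: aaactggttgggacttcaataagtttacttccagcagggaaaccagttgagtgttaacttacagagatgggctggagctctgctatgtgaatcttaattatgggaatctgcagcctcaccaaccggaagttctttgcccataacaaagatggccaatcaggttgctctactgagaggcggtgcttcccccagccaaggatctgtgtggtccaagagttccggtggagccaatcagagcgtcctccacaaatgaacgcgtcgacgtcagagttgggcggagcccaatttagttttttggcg
In Mcm3 the matches lay 20 to 26 and 40 to 49 bases after the start site, the second, TTGGCGCCAA, reading the same on both strands. In E2f8 the match spanned positions -111 to -105 relative to it. The Mcm10 window ends in ttggcg, which lacks only the last letter of TTGGCGC, so a match across that edge would be missed.

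Stretches of 40 bases around the first match are shown for the other members that had an unadjusted p under 0.05 and a match, to compare the sites. Those of Mcm5 (chr8:75109328-75109367) and Uhrf1 (chr17:56303272-56303311) are on the plus strand, and those of Mcm7 (chr5:138171357-138171396) and Pole2 (chr12:69228158-69228197) on the minus strand.
Mcm5: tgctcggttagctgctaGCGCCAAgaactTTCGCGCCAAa
Mcm7: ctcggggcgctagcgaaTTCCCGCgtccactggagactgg
Pole2: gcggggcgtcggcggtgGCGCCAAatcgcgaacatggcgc
Uhrf1: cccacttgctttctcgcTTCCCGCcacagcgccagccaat
Mcm5 carried a pair of matches within the stretch, Pole2 had its match just after the start site, and further listed windows of Mcm7 and Uhrf1 also held matches. Cdc45, Pola2, Rfc5 and Rpa1 held none in their windows.

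Among origin recognition and licensing genes, the 6 members had lower means by small amounts, the median being -0.10. In 1 of 6 (16.7%) every drug array was below every vehicle array, against 9.37% of all genes. Orc6, a subunit of the origin recognition complex, read 8.47, 8.43 and 8.48 in vehicle and 8.34, 8.40 and 8.29 in drug arrays. The groups did not overlap, and the log2 difference was -0.11 ± 0.05 (SE, n = 3 per group). Orc1 and Orc2, also subunits of that complex, differed by -0.11 and -0.02, and the loading factors Cdc6 and Cdt1 by -0.09 and -0.03. Cdc6 shows how the drug arrays disagreed. It read 7.73, 7.81 and 7.87 in vehicle and 7.70, 7.95 and 7.47 in drug arrays, so that drug replicate 2 was the highest and drug replicate 3 the lowest of all. Gmnn, which binds and inhibits Cdt1, differed by -0.10.

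The Mcm2-7 helicase subunits had lower means throughout (median -0.14 over 6 genes). In 4 (66.7%) every drug array was below every vehicle array, against 9.37% of all genes. Mcm3 read 9.80, 9.78 and 9.92 in vehicle and 9.65, 9.62 and 9.42 in drug arrays, a difference of -0.27 ± 0.08 (SE, n = 3 per group; limma unadjusted p = 0.0137, adjusted p = 0.394). Mcm5 read 9.50, 9.47 and 9.57 against 9.41, 9.31 and 9.11, a difference of -0.23 ± 0.09. Mcm7 read 11.28, 11.31 and 11.38 against 11.22, 11.18 and 11.12, a difference of -0.15 ± 0.06. In these 3 genes every drug value lay under every vehicle value, with drug replicate 3 lowest. Mcm4 also separated the groups, at -0.13 ± 0.06. Mcm2 and Mcm6 differed by -0.09 ± 0.12 and -0.11 ± 0.08 with overlapping groups. Although the 6 proteins form 1 ring, Mcm2 read higher in drug replicate 1 (9.37) than in any vehicle array (9.20, 9.20 and 9.21), and it was 8.86 in drug replicate 3. Mcm3, Mcm4, Mcm6 and Mcm7 had other probe sets, and each of these also had a lower drug mean, as had the other probe set of Mcm2.

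The factors that activate the helicase held the members with the largest differences. Mcm10 read 8.41, 8.54 and 8.49 in vehicle (mean 8.48 ± 0.07, SD, n = 3) and 8.24, 8.15 and 8.13 in drug arrays (8.17 ± 0.06, SD, n = 3). The groups were clearly apart and the drug arrays close together, and the difference was -0.31 ± 0.06 (SE, n = 3 per group), a signal 19.2% lower. Its unadjusted p of 0.00196 ranked 80 among all genes, and its limma adjusted p was 0.29. A second probe set of Mcm10, in the low part of the scale, read 4.51, 4.49 and 4.45 in vehicle and 4.53, 4.39 and 4.70 in drug arrays and so had the opposite sign, and with the mean of both probe sets the difference was -0.13. Cdc45, a part of the active helicase, read 7.04, 7.09 and 7.22 against 6.86, 6.96 and 6.57, a difference of -0.32 ± 0.11. Its groups did not overlap, and drug replicate 3 stood lowest by a wide margin. Gins1, of the GINS complex, differed by -0.06 ± 0.09, with the highest of all values in drug replicate 1.

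The 8 polymerase and primase genes all had lower means (median -0.13). In 4 (50%) every drug array was below every vehicle array, against 9.37% of all genes. Pole2, the second subunit of the leading-strand polymerase epsilon, read 8.39, 8.42 and 8.28 in vehicle and 8.16, 8.24 and 7.96 in drug arrays, a difference of -0.25 ± 0.09 (SE, n = 3 per group). Pola2, a subunit of the polymerase alpha that starts new strands, read 8.02, 7.90 and 8.09 against 7.90, 7.78 and 7.62, a difference of -0.24 ± 0.09. For Pola2 the separation was by less than the rounding, since the lowest vehicle and the highest drug value were both 7.90, and likewise for Prim2, where both were 8.27. The catalytic subunits Pola1, Pold1 and Pole differed by -0.21, -0.14 and -0.09 with overlapping groups. Pold2, the second subunit of polymerase delta, and Prim2, of primase, differed by -0.12 and -0.10 with separate groups, and Prim1 by -0.13 with overlapping ones.

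**Figure D2:**
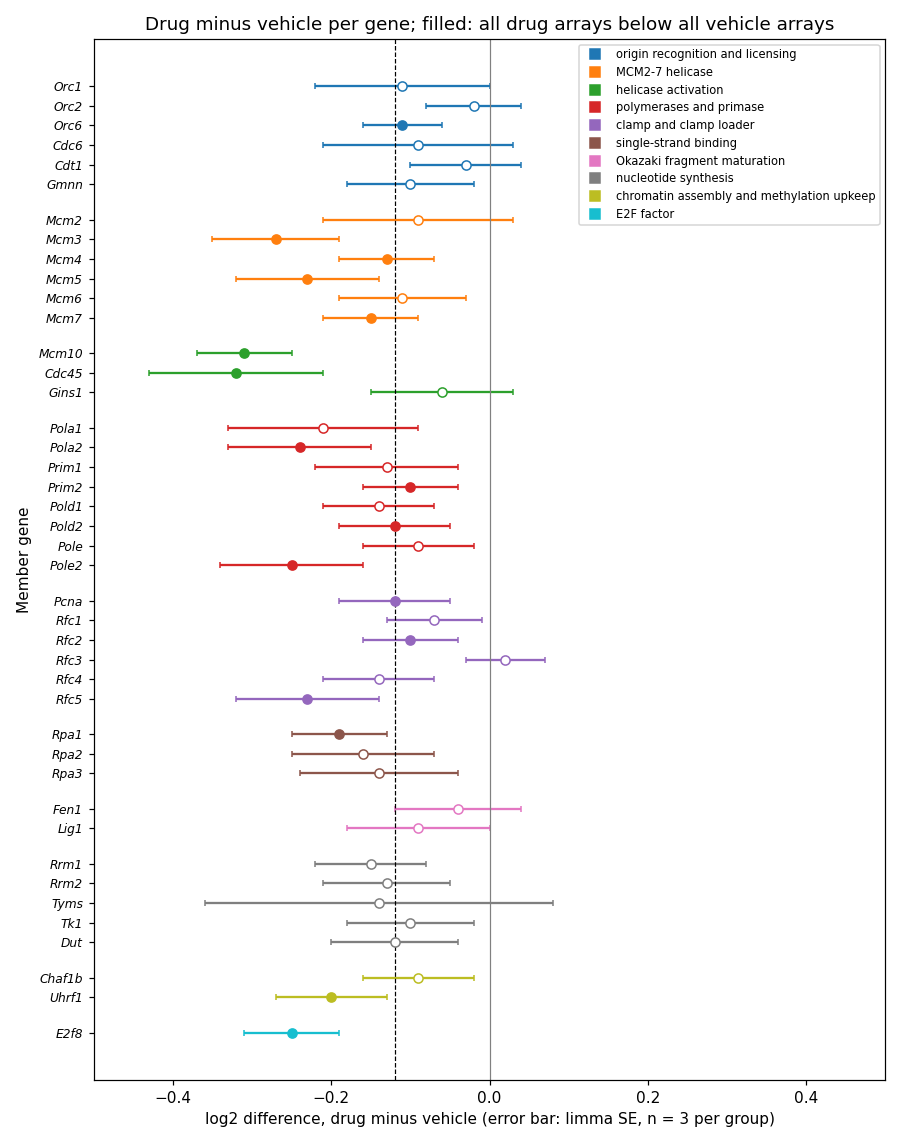
Each point is the log2 difference of a member gene, drug minus vehicle, with its limma SE as error bar (n = 3 per group), coloured by role; filled points mark the 17 genes whose drug arrays all lay below the vehicle arrays. The dashed line is the members' median of -0.12, and Rfc3 at 0.02 is the gene on the other side of 0.

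Of the 6 clamp and loader genes 5 had lower means (median -0.11). In 3 (50%) every drug array was below every vehicle array, against 9.37% of all genes. Pcna, the sliding clamp that tethers polymerases, differed by -0.12 ± 0.07 with separate groups. Of the loader subunits, Rfc5 read 9.50, 9.43 and 9.52 in vehicle and 9.39, 9.28 and 9.08 in drug arrays, a difference of -0.23 ± 0.09 (SE, n = 3 per group). Rfc3 read 7.78, 7.81 and 7.80 against 7.82, 7.88 and 7.75, a difference of 0.02 ± 0.05. It was the 1 member with a higher drug mean, its groups overlapped, and its other probe set differed by -0.05. Rfc1, Rfc2 and Rfc4 differed by -0.07, -0.10 and -0.14. The groups of Rfc2 and Rfc5 were separate, and those of Rfc1 and Rfc4 overlapped. Among the subunits of RPA, which coats single-stranded DNA, Rpa1 read 10.77, 10.68 and 10.67 against 10.54, 10.57 and 10.44. The groups of Rpa1 were separate, with a difference of -0.19 ± 0.06, and its other probe set differed by -0.22. Rpa2 and Rpa3 differed by -0.16 and -0.14 with overlapping groups.

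The enzymes that finish Okazaki fragments and those that make deoxynucleotides gave small differences with overlapping groups. Lig1, which seals nicks in the lagging strand, read 9.67, 9.62 and 9.78 in vehicle and 9.72, 9.66 and 9.43 in drug arrays, a difference of -0.09 ± 0.09 (SE, n = 3 per group). Fen1, the flap nuclease, differed by -0.04 ± 0.08. In both genes drug replicates 1 and 2 lay within or above the vehicle range and drug replicate 3 below it, and the median of this pair was 0.02 without drug replicate 3. Rrm1, the large subunit of ribonucleotide reductase, read 10.20, 10.17 and 10.35 against 10.18, 10.08 and 10.02, a difference of -0.15 ± 0.07. Its small subunit Rrm2 differed by -0.13, thymidine kinase (Tk1) by -0.10 and dUTPase (Dut) by -0.12. Thymidylate synthase (Tyms) varied most, at 5.39, 5.03 and 5.07 in vehicle and 4.64, 5.47 and 4.96 in drug arrays, a difference of -0.14 ± 0.22 with drug values on both sides of vehicle. The 5 nucleotide genes had a median of -0.13, and 0 of them had every drug array below vehicle, against 9.37% of all genes.

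Uhrf1, which recruits the maintenance methyltransferase to newly copied DNA, and E2f8, an E2F factor that represses transcription, had separate groups. Uhrf1 read 10.00, 9.96 and 9.94 in vehicle and 9.84, 9.84 and 9.63 in drug arrays, a difference of -0.20 ± 0.07 (SE, n = 3 per group), and its other probe set differed by -0.19. E2f8 read 8.53, 8.52 and 8.60 against 8.34, 8.35 and 8.21, a difference of -0.25 ± 0.06 (limma unadjusted p = 0.00548, adjusted p = 0.352). All 3 drug arrays of E2f8 took part, and without drug replicate 3 the difference was -0.21. Chaf1b, a subunit of the histone chaperone CAF-1, differed by -0.09 ± 0.07 with overlapping groups.

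Of the 33 further probe sets of the members, 29 had lower drug means. Those with the sign opposite to the gene's first probe set belonged to Mcm10, Cdt1, Orc2, Tyms and Rfc3, at log2 differences of 0.05, 0.11, 0.06, 0.10 and -0.05. By the probe set names, 3 of the 42 probe sets used can match several transcripts (those of Mcm2, Mcm3 and Mcm7) and 3 may bind unrelated ones (those of Pold1, Fen1 and Rrm2).

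**Figure D3:**
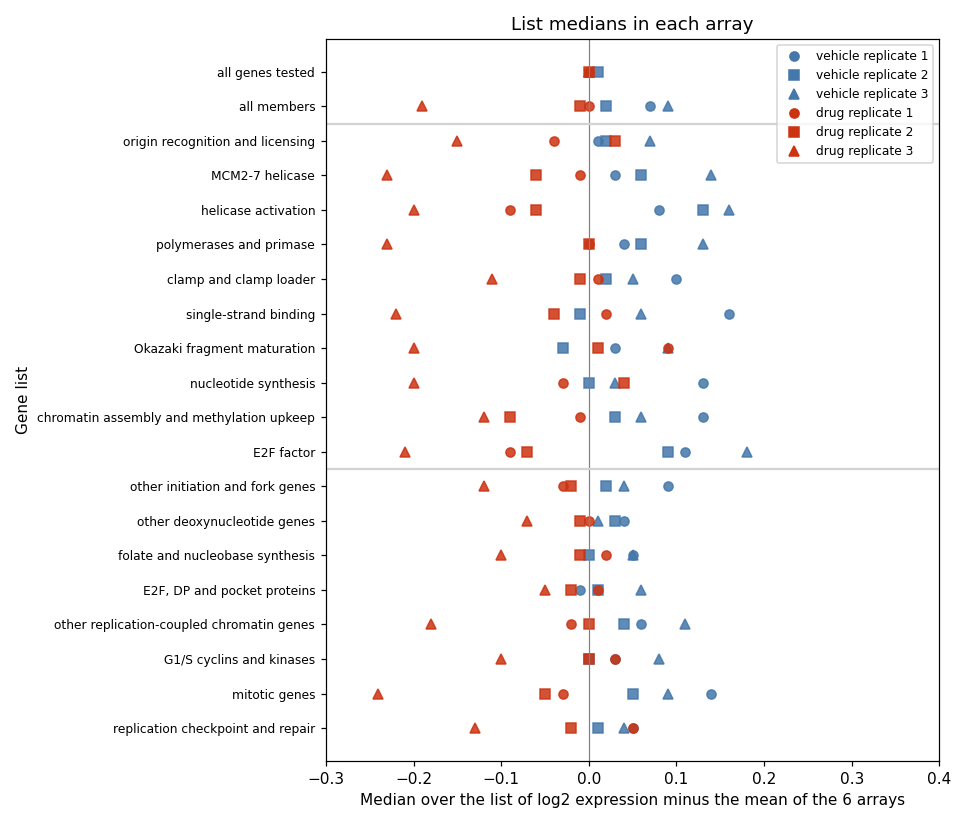
Each row is a gene list, and each symbol is the median over its genes, in 1 array, of log2 expression minus the gene's mean over the 6 arrays. All genes tested stay near 0 in every array, and the members are at 0.07, 0.02 and 0.09 in vehicle and 0.00, -0.01 and -0.19 in drug arrays.

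By role, and with each gene's brightest probe set, the lowest median was that of the 3 helicase activation genes at -0.31, the value of Mcm10. Medians were -0.16 for RPA, -0.14 for the Mcm2-7 ring and for the pair Chaf1b and Uhrf1, -0.13 for polymerases and for nucleotide synthesis, -0.11 for clamp and loader, -0.10 for licensing and -0.07 for Okazaki fragment maturation. This order depended on the choice of probe set. When the probe sets of each gene were averaged, the helicase activation median was -0.13. Lower medians were then those of RPA (-0.16), the Mcm2-7 ring and polymerases (-0.15 each), and the pair Chaf1b and Uhrf1 (-0.14). The roles hold 2 to 8 genes each and their differences from one another were not tested. Without drug replicate 3 the medians were -0.20 for helicase activation, -0.12 for the Mcm2-7 ring and for Chaf1b and Uhrf1, -0.08 for polymerases, -0.07 for RPA, -0.06 for clamp and loader and for nucleotide synthesis, and -0.01 for licensing. Drug replicate 3 had the lowest median of the 6 arrays in each of these 9 groups and for E2f8. All drug array medians were below all vehicle array medians in helicase activation (-0.09, -0.06 and -0.20 against 0.08, 0.13 and 0.16), and also in the Mcm2-7 ring, the polymerases, clamp and loader, the pair Chaf1b and Uhrf1, and E2f8. They overlapped in licensing, RPA, Okazaki fragment maturation and nucleotide synthesis. In nucleotide synthesis drug replicate 2 (0.04) was above vehicle replicates 2 and 3 (0.00 and 0.03).

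Other genes of the pathway, in lists made with earlier results of these data known, mostly leaned the same way. With limma, 0 of 118 measured genes in these 8 lists had an adjusted p under 0.05, while 43 (36.4%) had all drug arrays below vehicle, against 9.37% of all genes, and 5 (4.24%) all above, against 7.73%. Of 22 further initiation and fork genes 20 were lower (median -0.11). Chtf8, part of an alternative clamp loader, and Topbp1, which helps start replication, differed by -0.23 ± 0.05 and -0.23 ± 0.06 (SE, n = 3 per group). Of 7 chromatin genes that act at the fork 7 were lower (median -0.13), including the maintenance methyltransferase Dnmt1 at -0.19 and the histone-binding Rbbp4 at -0.13. Deoxynucleotide genes outside the members had a median of -0.07, with 8 of 11 lower. Dck, the deoxycytidine salvage kinase, differed by -0.21, and Samhd1, which breaks down deoxynucleotides, by -0.14. Folate and nucleobase synthesis genes had a median of -0.05, with 15 of 18 lower, among them Ctps, which makes CTP, at -0.13 and Umps, which makes UMP, at -0.12.

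The E2F factors themselves, their DP partners and the pocket proteins that restrain them had a median of -0.02, with 6 of 9 lower. Rbl1, the pocket protein p107, read 9.01, 8.91 and 9.07 in vehicle and 8.79, 8.82 and 8.65 in drug arrays, a difference of -0.24 ± 0.07 (SE, n = 3 per group). E2f3 differed by 0.15 ± 0.07 with overlapping groups. E2f1, an activating E2F and named here after its values were seen, read 7.30, 7.32 and 7.44 against 7.46, 7.53 and 7.14, a difference of 0.02 ± 0.11. Its drug replicates 1 and 2 were above every vehicle array and drug replicate 3 below.

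Cell cycle genes around S phase were divided. In the list of G1/S cyclins and kinases 9 of 14 were lower (median -0.08). The CDK inhibitor Cdkn1a had a higher mean, at 9.34, 9.00 and 8.97 in vehicle and 9.47, 9.68 and 9.35 in drug arrays, a difference of 0.39 ± 0.13 (SE, n = 3 per group). Its groups were apart, by 0.01 between vehicle replicate 1 and drug replicate 3 as rounded, and its limma adjusted p was 0.412. Cdk2, the kinase that drives S phase, differed by -0.15 ± 0.06. All 23 measured mitotic genes were lower (median -0.20), against 52.1% of all genes. In 16 (69.6%) every drug array was below every vehicle array, against 9.37% of all genes, including Top2a at -0.26 and Bub1 at -0.33. Replication checkpoint and repair genes had a median of -0.07, with 11 of 14 lower, the mismatch repair gene Msh6 at -0.19 and Wee1, a kinase that holds back Cdk1, at 0.22.

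Markers of cell types also differed between arrays. Of 11 mammary epithelial markers 9 had higher drug means and 2 lower, with a median difference of 0.14. Their summed signal on the linear scale was 28200 to 31000 in vehicle and 31600 to 34300 in drug arrays. Krt5 and Krt14 differed most, by 0.62 and 0.60, and Epcam, Krt8 and Krt18 by 0.00, 0.09 and 0.10. All 17 skeletal muscle markers had lower drug means, with summed signals of 2390 to 26800 and 795 to 16100. Of the T and NK cell markers 9 of 12 had lower means (601 to 655 against 554 to 648), of the macrophage markers 6 of 9 (5760 to 8120 against 4950 to 6280), and of the B and plasma cell markers 7 of 8 (3840 to 5490 against 4120 to 4970). Xbp1, the brightest B and plasma cell marker, which secretory epithelium also expresses, makes up most of that last sum and differed by 0.07. Igha and Jchain, of secreted immunoglobulin, differed by -1.93 ± 0.45 and -1.84 ± 0.33 (SE, n = 3 per group) with separate groups. Their limma adjusted p were 0.343 and 0.268. Zap70, by far the brightest T and NK cell marker, differed by 0.07. Cd3d and Cd3g, in the low part of the scale, differed by -0.52 ± 0.09 and -0.46 ± 0.14 with separate groups (limma adjusted p 0.267 and 0.409). All 4 red blood cell markers had every drug array above every vehicle array, as did 7.73% of all genes. Their summed signals were 157 to 187 against 231 to 427, and Alas2 led at 1.63 ± 0.42. Of the fibroblast markers 8 of 10 had higher means (11000 to 21400 against 16800 to 19100), of the endothelial markers 5 of 8 (715 to 883 against 759 to 856) and of the adipocyte markers 5 of 10 (2010 to 12800 against 2360 to 7560). The lowest gene means in these lists were 5.69 for Casq1, 3.43 for Cd8b1, 5.57 for Cd163, 3.93 for Ms4a1, 3.50 for Hba-a1, 6.57 for Fap, 4.53 for Tek and 3.06 for Lep on the log2 scale. Drug replicate 3, the array with the lowest members, had the highest medians of epithelial (0.15 above the mean of the 6 arrays) and red blood cell markers (0.50), and the lowest of macrophage (-0.36), B and plasma cell (-0.34), T and NK cell (-0.14) and skeletal muscle markers (-2.50). With the muscle score of each array as a covariate, 37 of 42 members still had a lower drug coefficient and the median was -0.08. With the arrays richest in muscle transcripts (vehicle replicate 3, drug replicate 1) left out, it was 39 of 42 and -0.14. The part of muscle or of any other cell type in the members' differences was not tested.

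**Figure D4:**
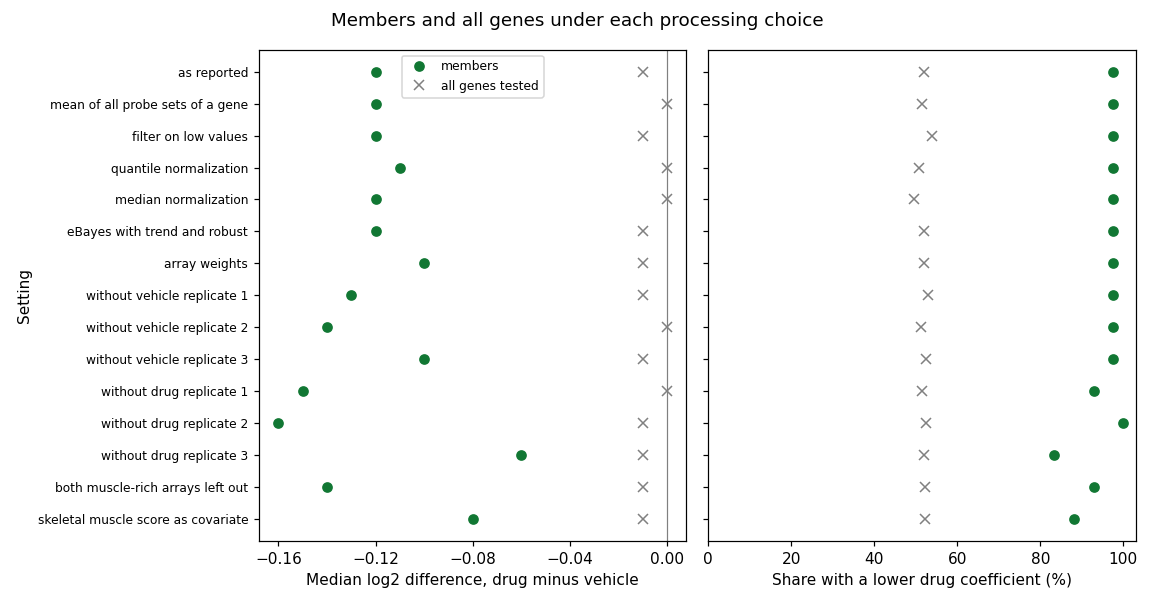
Each row is a way of processing the data or a set of arrays; the left panel gives the median log2 difference, drug minus vehicle, and the right panel the share of genes with a lower drug coefficient, for the members (green) and all genes tested (grey crosses). The members' median runs from -0.16 without drug replicate 2 to -0.06 without drug replicate 3, while that of all genes stays at 0.00 or -0.01.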

How the data were processed

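Total RNA of 6 tumor samples was isolated with a column kit and labelled with biotin, per the labels' protocols. The authors' deposited table gives expression values, read here as log2, for 22690 probe sets. They were made with Affymetrix Expression Console per the submitters' processing notes. How the program summarised and normalized the probes is not given in the sources. The log base was inferred from the range of the values, 1.88 to 14.14. Array medians were near equal, so the values were used as they are. If arrays were made equal before deposit, a shift of most genes would be lost. The number of arrays limits precision, and detection calls were not used.

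The platform annotation of 2016 gave 1 symbol to 20380 probe sets, several to 691 and none to 1555, and 64 were controls. Through Entrez identifiers, 99.9% of the first matched the GRCm38.p6 gene table, and 0 symbols changed. Drug and vehicle arrays were compared by lmFit and eBayes of limma 3.58.1 under R 4.3.3 (two-sided, Benjamini-Hochberg over 12393 genes, threshold 0.05, no covariate or filter), a procedure checked on simulated data. Lists are described by counts and medians, with no test. Members and lists were chosen with earlier results of these data known. The naming rule gives array values for the member with the smallest p in each role, members with an unadjusted p under 0.05 and members with a higher drug mean, and names 2 genes of each pathway list by p. Cdc6, Tyms, Mcm2 and E2f1 were given array values after their values were seen. Outside the rule, Rbl1, Cdkn1a, Ccnd1 and Pold4 were also given array values, and single marker genes were named. The 7-letter E2F motifs were adopted after counts of both lengths were seen. Alternative settings were a gene's mean over its probe sets, a filter at the 25th percentile of level, quantile normalization, median centring, trended robust eBayes, weighted arrays, arrays left out and a muscle score as covariate (the array's median of 17 muscle markers). Figures were drawn with matplotlib 3.10.9.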

Additional observations from a re-analysis of the deposited data

How the results depend on the processing

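The number of members with a lower drug mean stayed at 41 of 42 with the mean of all probe sets, quantile normalization, median centring and array weights. Medians in these settings were -0.12 to -0.10. The level filter removed no member and trended robust eBayes leaves the differences as they are, so neither could change that number or the median. With 1 array left out, 35 to 42 members had a lower drug mean and the median was -0.16 to -0.06. The number with all drug arrays below vehicle was then 17 to 25, against 13.5% to 15.8% of all genes. Leaving out an array cannot lower this number below the 17 of the full set. That last count was 12 with quantile normalization, against 8.58% of all genes, and 25 with both muscle-rich arrays left out, where it covered 22% of all genes; a covariate does not enter this count, which uses the array values. Genes past limma's threshold numbered 0 in the settings with every array kept and 0 to 3 with 1 array left out, the 3 without drug replicate 2, and 0 of them were members. With the mean of all probe sets Rfc3 turned to -0.02 and Orc2 to 0.01, so Orc2 was then the member with a higher drug mean. With arrays left out, Rfc3 ran from -0.01 without drug replicate 2 to 0.05 without drug replicate 3. The median of Fen1 and Lig1 turned to 0.02 without drug replicate 3 and to 0.01 with the muscle covariate. The helicase activation median was -0.13 when probe sets were averaged, and it was then no longer the lowest among the roles. Without drug replicate 3 it was -0.20, and the licensing median was -0.01. With array weights the medians of licensing, nucleotide synthesis and Fen1 with Lig1 were -0.04, -0.08 and -0.04, and with the muscle covariate those of RPA, polymerases and licensing were -0.08, -0.08 and -0.06. The cause of these shifts was not tested. No paired analysis was possible because replicate numbers were given in deposit order and pair no samples.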

Other observations

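Against the lower means of most replication genes, 5 of the 118 other pathway genes (4.24%, below the background of 7.73%) had each drug array above each vehicle array, namely Cdkn1a, Ccnd1, Wee1, Pold4 and Rbl2, of which those not named by the rule were named after their values were seen. Ccnd1, the cyclin D1 that acts early in G1, read 9.38, 8.99 and 9.34 in vehicle and 9.64, 9.59 and 9.40 in drug arrays, which differ by 0.31 ± 0.12 (SE, n = 3 per group). Pold4, the smallest subunit of polymerase delta, read 7.69, 7.63 and 7.56 against 7.76, 7.86 and 7.81, a difference of 0.19 ± 0.06, while Pold1 and Pold2 of the same enzyme differed by -0.14 and -0.12. Rbl2, the pocket protein p130, differed by 0.10 ± 0.05 and its relative Rbl1 by -0.24 ± 0.07. Their limma adjusted p were 0.475 for Ccnd1, 0.409 for Pold4, 0.565 for Rbl2 and 0.394 for Rbl1, so none passed the threshold.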
